A study of Mus musculus with 6 samples.

Results

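Type 2 vomeronasal receptors are the receptors of one class of vomeronasal sensory neuron, and 117 genes of this family were among the 40273 genes of a read-count table from mouse olfactory mucosa. They were taken by symbol alone, as every gene called Vmn2r followed by a number, without use of any measured value. None of the 117 symbols carried a -ps suffix after the number. A further 82 genes named Vmn2r-ps plus a number lie outside that rule and are given for comparison. The table listed only genes with at least 2 reads over all 6 libraries.

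The 6 animals formed 2 groups of 3. The control group was wild type, and the other group carried a deletion of 1005 bp, called ΔeC, which the series describes as a class I odorant receptor enhancer and places at chr7:102916999-102918004. Both groups were male, of the same mixed strain label (129S6;C57BL/6J) and age matched at postnatal day 30. The labels do not say which strain's alleles each animal carried around the deletion, nor how many founders the deletion line had, and the build of the deletion's coordinates is not stated. RNA from dissected olfactory mucosa was ribodepleted and sequenced with a stranded total RNA kit, so each library holds all cell types of that tissue.

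Type 2 vomeronasal receptors (V2Rs) are class C G protein-coupled receptors with a long extracellular part that binds peptides and proteins. They are known from the basal layer of the vomeronasal organ, where they signal through the G protein subunit encoded by Gnao1 and the channel Trpc2, and where many of their neurons also carry H2-Mv proteins, non-classical MHC molecules bound to B2m. The receptors Vmn2r1 to Vmn2r7 form family C, whose members are co-expressed broadly with the other V2Rs, of which a neuron usually expresses one. The olfactory mucosa is a different sheet of the nose, in which most sensory neurons carry an odorant receptor instead.

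The 6 libraries fell into separate sets when ordered by how many genes had any read, and did so too when the V2Rs were left out. Control 1, deletion 1 and deletion 2, called set A here, had reads in 26564 to 27879 genes, against 36197 to 37456 genes in control 2, control 3 and deletion 3, called set B. Set A was not shallower, since its libraries held 34169776 to 50906277 reads and those of set B 30342763 to 31281010. Nothing in the labels gives a reason for the sets. Each set holds both groups, but unequally, so results below are also given with the set as a term or within it. In bulk tissue, fewer cells of a type and less RNA per cell cannot be told apart.

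V2R reads were few in every library, and their number followed the sets rather than the groups. Counts of V2R reads were 235, 400 and 496 in controls 1 to 3 and 118, 110 and 549 in deletions 1 to 3, or 1908 in all. As a rate these were 4.62, 12.8 and 15.9 per 1000000 reads in the controls and 2.39, 3.22 and 18.1 in the deletion libraries. The exact Clopper-Pearson 95% intervals, which cover counting error only, were 1.98 to 2.87 for the lowest library, deletion 1, and 16.6 to 19.7 for the highest, deletion 3. Every set B library lay above every set A library. Set against the reads of the 1318 odorant receptors, the V2Rs had 0.0952% to 0.486% as many reads.

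**Figure D1:**
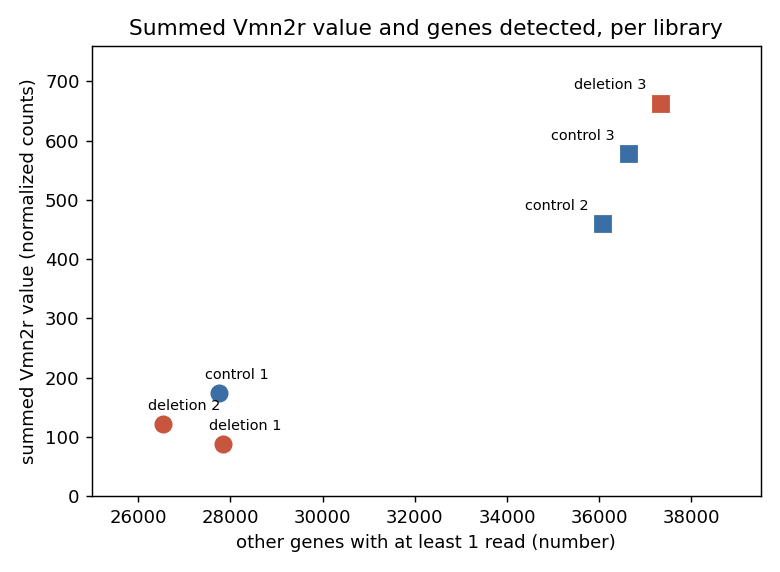
Summed value of the 117 Vmn2r genes (normalized counts) against the number of other genes with at least 1 read, for each of 6 libraries. Circles are set A and squares set B, blue is control and red deletion. The set B libraries sit at 459 to 663 and the set A libraries at 88.1 to 174.

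The authors' values are read counts divided by a factor per library, called normalized counts below, so that 1 read was worth 0.739 to 1.21. The summed V2R value was 174, 459 and 577 in controls 1 to 3 and 88.1, 121 and 663 in deletions 1 to 3. The group means were 403 ± 207 in control and 291 ± 323 in deletion (SD, n = 3), a ratio of 0.721 that lies well inside the spread of either group. Within set A the ratio of deletion to control was 0.603 and within set B it was 1.28, so its direction differed between the sets. The lowest and the highest library were both deletion libraries.

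Set B exceeded set A for nearly every member. The mean value was higher in set B for 115 of 117 members and higher in set A for Vmn2r21 and Vmn2r73, which were picked out after their values were seen. The mean over members was 1.09 in set A and 4.84 in set B, a difference of 3.75 normalized counts per gene. Among 145 type 1 vomeronasal receptors (V1Rs), the receptors of the apical vomeronasal layer, the same difference was 1.79, 2.25 among the 82 Vmn2r-ps genes and 23.7 among the 1318 odorant receptors, whose level is far higher. The median difference was 3.41 for the V2Rs, 10.38 for odorant receptors and 1.54 over all 40273 genes, of which 27373 were higher in set B. The part that whatever separates the sets plays in V2R detection was not tested.

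Most members were at the edge of detection. The total over all 6 libraries was 2 to 88 reads per gene with a median of 12, and 43 members had under 10 reads, 44 had 10 to 19, 26 had 20 to 49 and 4 had at least 50. Reads were seen in all 6 libraries for 21 members. For 47 members they were seen in set B alone and for 1 member in set A alone. The number of members with a read was 57, 108 and 111 in controls 1 to 3 and 39, 37 and 114 in deletions 1 to 3. A count of 0 allows a value of up to 2.22 to 3.62 by library, the value of 3 reads, so a member at 0 is not shown to be silent. The median of the mean value was low beside other genes, at 2.28 for the V2Rs, 0.788 for the V1Rs, 47.3 for odorant receptors and 9.72 for all genes.

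**Figure D2:**
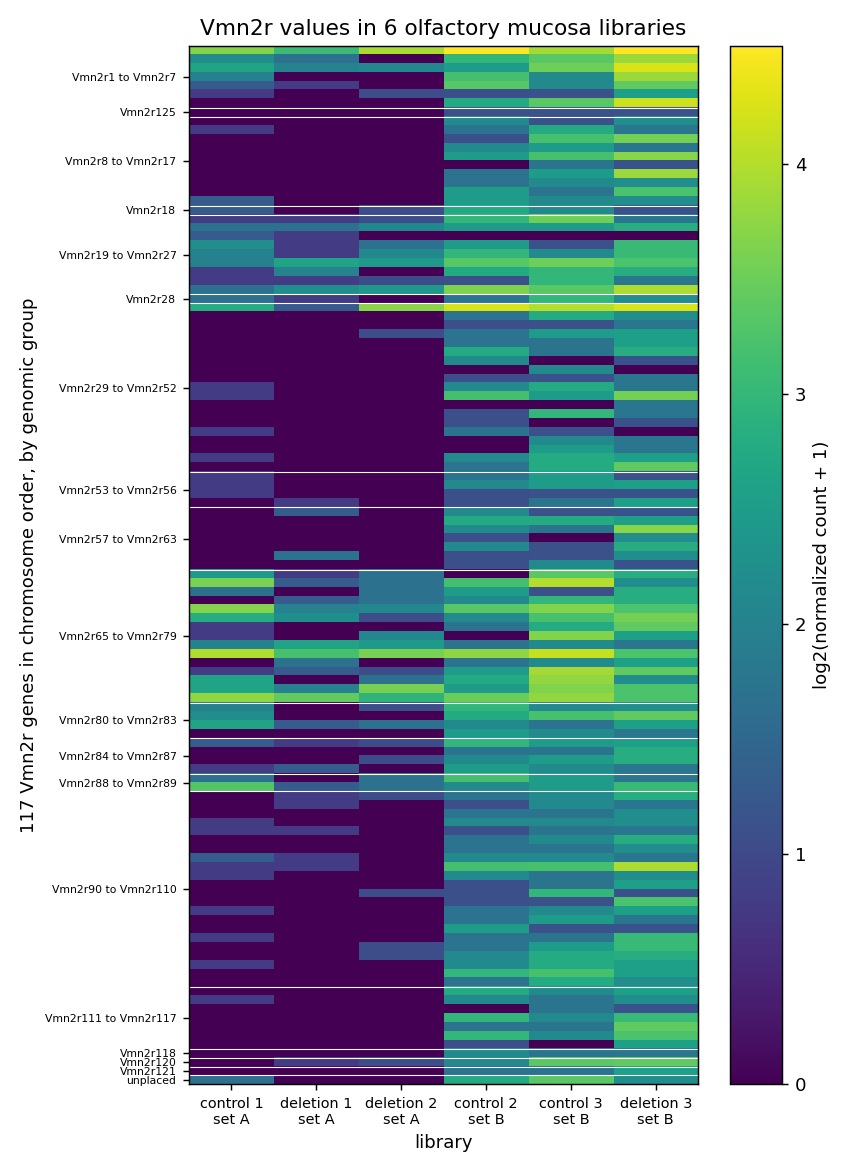
Values of all 117 Vmn2r genes (rows, in chromosome order, split by genomic group) in 6 libraries (columns, set A left and set B right) as log2(normalized count + 1). In set A, reads fall in 37 of 45 cells of the Vmn2r65 to Vmn2r79 group and 25 of 27 of the Vmn2r19 to Vmn2r27 group but in 2 of 30 of the Vmn2r8 to Vmn2r17 group, while the set B columns hold reads in 108 to 114 members.

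Of the 117 members, 4 reached a value of 10 in 3 or more libraries: Vmn2r1, Vmn2r29, Vmn2r74 and Vmn2r79. In 93 members no library reached 10, in 15 members 1 library did and in 5 members 2 libraries did. No library held more than 14 members at 10 or above, and deletion 1 held none. Just outside the threshold, with 2 libraries at 10 or above, were Vmn2r3, Vmn2r27, Vmn2r66, Vmn2r69 and Vmn2r78. Just inside it was Vmn2r79, with 3 such libraries, all of them controls, followed by Vmn2r29 and Vmn2r74 with 4 and Vmn2r1 with 5. A gene that passes through its control libraries alone is more likely to appear lower in the deletion group, so the differences of such genes are described and not counted as support. No member reached 10 in all 6 libraries, and none reached 20 in 3.

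Vmn2r1, a family C receptor at chr3:64081547-64109484 (GRCm38, plus strand), had the most reads of any member, 88. Its values were 11.8, 21.8 and 13.95 in controls 1 to 3 and 7.47, 14.4 and 21.7 in deletions 1 to 3. The groups overlapped throughout, with means of 15.9 ± 5.26 and 14.5 ± 7.13 (SD, n = 3). It was one of the few members well above 0 in every set A library.

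Vmn2r29, at chr7:7231327-7247328 on the minus strand, was at 5.91, 18.4 and 15.1 in the controls and 1.49, 12.1 and 18.1 in the deletion libraries. Its groups overlapped, and deletion 1 and control 1 were the low libraries. This gene's identity is uncertain. Only 22.0% of the 50-base words of its annotated transcripts occurred in no other gene's transcripts, and it overlaps Gm45844 on the same strand. Of its words, 78.0% occurred in genes that are not members and 28.3% in other members. Unique words were also few among its neighbours, since 16 of the 19 members from Vmn2r29 to Vmn2r52 had under 50%. Reads may thus be split or shared between these members and with other genes.

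Vmn2r74 and Vmn2r79 both lie in a group of 15 members, Vmn2r65 to Vmn2r79, that spans chr7:84935565-87044941. Vmn2r74 (chr7:85944614-85961629, minus strand) was at 14.8, 12.6 and 16.3 in the controls and 8.22, 11.04 and 8.45 in the deletion libraries. Vmn2r79 (chr7:86996115-87044941, plus strand) was at 12.6, 10.33 and 12.8 in the controls and 9.71, 6.62 and 8.45 in the deletion libraries. In both genes every deletion library was below every control library, though in Vmn2r79 the nearest libraries, at 10.33 and 9.71, were less than the value of 1 read apart. These transcripts were largely distinct, with 97.7% and 85.0% unique words.

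None of the 4 members passed the test between groups. The test was limma on log2(normalized count + 1) over the 20368 genes that reached 10 in 3 or more libraries. Adjusted p-values are Benjamini-Hochberg values, called below 0.05. It called 15 genes, or 0.0736% of those tested, and 0 of the 4 members, none of which had an unadjusted p under 0.05 either. The log2 fold change of deletion over control was -0.19 ± 0.47 for Vmn2r1, -0.60 ± 0.81 for Vmn2r29, -0.61 ± 0.37 for Vmn2r74 and -0.49 ± 0.40 for Vmn2r79 (± SE), and limma's adjusted p was 0.982 for each. The median of the 4 was -0.54 against 0.01 over all genes tested, and the rule that let these genes in, described above, bears on that value. edgeR's quasi-likelihood test and DESeq2 on the recovered whole reads also called 0 of the members.

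With the library set as a term, limma called 36 genes (0.177%) and again 0 of the 4 members. The fold changes were then 0.06 for Vmn2r1 and -0.08 for Vmn2r29, so that the first changed sign and the second was near 0. Those of Vmn2r74 and Vmn2r79 were -0.64 ± 0.32 and -0.50 ± 0.33, and the median of the 4 was -0.29. A p that misses the threshold does not show that these receptors were alike in both groups.

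The remaining 113 members could be fitted only without the filter on low values. That fit called 18 of 40273 genes (0.0447%) and 0 of 117 members. An unadjusted p under 0.05 was reached by 3 members, Vmn2r66, Vmn2r77 and Vmn2r122, or 3 of 117, against 706 genes (1.75%) in all. The fold change was below 0 in 103 of 117 members, with a median of -0.42 against -0.04 over all genes. With the library set as a term as well, limma called 15 genes and 0 members, the fold change was below 0 in 54 of 117 and the median was 0.07. An unadjusted p under 0.05 was then reached by Vmn2r48, Vmn2r66, Vmn2r90 and Vmn2r122, 4 of 117 members against 3.23% of all genes. The general downward shift of the V2Rs was therefore not seen once the sets were held. In the authors' deposited table no member had an adjusted p under 0.05, of the 87 that were given one. Over all genes, 33 of the 30107 given one were under 0.05 there.

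Counted without a model, 7 of 117 members were lower in every deletion library than in any control library, against 1109 of 40273 genes (2.75%). None was higher in every deletion library, against 933 genes (2.32%). A member at 0 in any control library cannot count as lower, and a member at 0 in any deletion library cannot count as higher. Control 1 had a read in 57 members, and deletions 1 and 2 in 39 and 37. The 7 were Vmn2r18, Vmn2r48, Vmn2r66, Vmn2r69, Vmn2r74, Vmn2r77 and Vmn2r79, and apart from Vmn2r74 and Vmn2r79 they are named here after their values were seen. Vmn2r18 and Vmn2r48 rested on 12 and 4 reads in all. The other 5 all belong to the Vmn2r65 to Vmn2r79 group.

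Vmn2r66 had the widest gap of the 7. Its values were 11.1, 8.04 and 15.1 in controls 1 to 3 and 1.49, 2.21 and 3.62 in deletions 1 to 3. It was picked because every deletion library lay below every control library. The same direction within set A and within set B follows from that and adds no support. limma without the filter gave a log2 fold change of -1.86 ± 0.61 with an unadjusted p of 0.0116 and an adjusted p of 1.00, and -1.74 ± 0.42 with the set as a term (adjusted p = 0.930). In the authors' deposited table this gene had the smallest unadjusted p of any member, 0.0352. It was the only member under 0.05 there, 1 of 117, against 393 of 40273 genes.

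Vmn2r69 was at 11.8, 9.18 and 11.6 in the controls and 2.99, 3.31 and 8.45 in the deletion libraries. Deletion 3, from set B, lay close to the lowest control. Vmn2r77 was at 5.17, 5.74 and 12.8 in the controls and 0, 2.21 and 3.62 in the deletion libraries. Its gap was narrow apart from control 3.

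**Figure D3:**
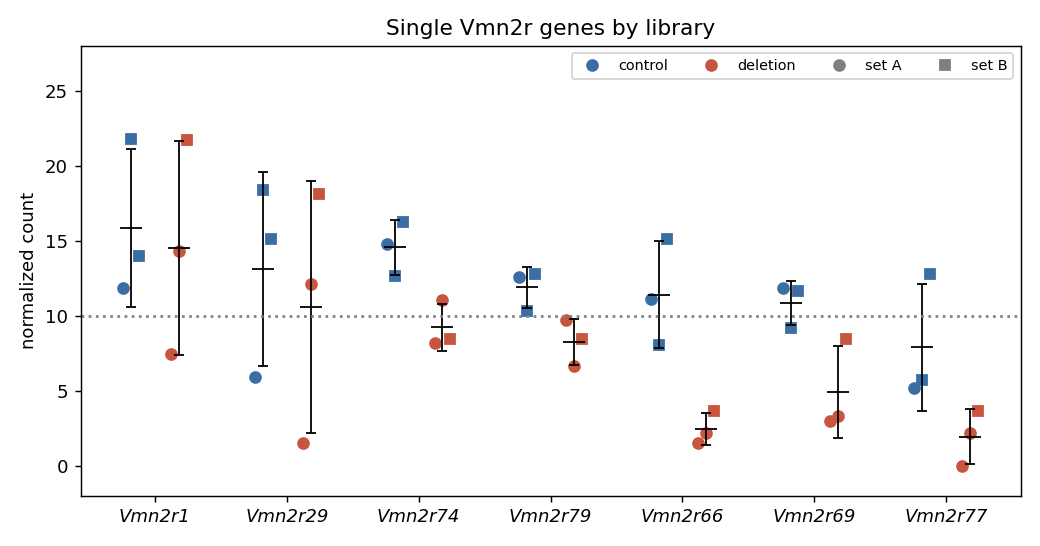
Normalized counts of 7 Vmn2r genes in single libraries (blue control, red deletion, circles set A, squares set B), with the mean and SD of each group in black and the value 10 dotted. Vmn2r1 and Vmn2r29 overlap between groups, while the red points of the other 5 genes lie below their blue ones.

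The Vmn2r65 to Vmn2r79 group was the source of many of the V2R reads in set A. It holds 15 of 117 members and 480 of 1908 reads. Its summed value was 78.4, 73.5 and 144 in controls 1 to 3 and 40.3, 53.0 and 101 in deletions 1 to 3, with means of 98.7 ± 39.5 and 64.9 ± 32.2 (SD, n = 3) that overlap. It supplied 45.1%, 45.8% and 43.6% of V2R reads in the set A libraries control 1, deletion 1 and deletion 2, but 16.0%, 25.0% and 15.3% in the set B libraries control 2, control 3 and deletion 3.

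For the other 102 members the sum was 95.4, 386 and 433 in the controls and 47.8, 68.4 and 561 in the deletion libraries. Set B over set A was therefore 6.52 for the sum of these members and 1.86 for the group. The 102 members were not alike in this, since the same ratio was 1.79 for Vmn2r88 and Vmn2r89, 2.85 for Vmn2r19 to Vmn2r27 and 3.55 for Vmn2r1 to Vmn2r7. The mean level per gene in set A was 3.82 in the Vmn2r65 to Vmn2r79 group, 2.83 in Vmn2r88 and Vmn2r89, 2.77 in Vmn2r1 to Vmn2r7 and 2.06 in Vmn2r19 to Vmn2r27, and at most 1.39 in any other group. Set B exceeded set A by 3.28 normalized counts per gene in the Vmn2r65 to Vmn2r79 group and by 3.82 over the other 102 members. Within set A the ratio of deletion to control was 0.596 in the group, and within set B it was 0.932.

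**Figure D4:**
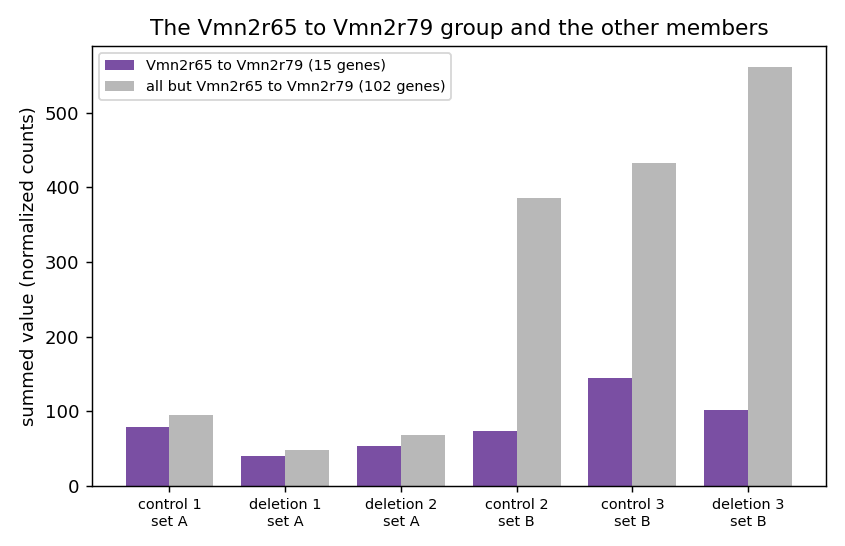
Summed normalized count per library of the 15 genes Vmn2r65 to Vmn2r79 (purple) and of the 102 other members (grey), with set A left and set B right. The purple bars run from 40.3 to 144, while the grey bars are at most 95.4 in set A and at least 386 in set B.

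Members of this group also share a promoter stretch. In the RefSeq promoters (GRCm38.p6, 250 bases before to 50 after the start), 13 of the group's 15 genes were matched, and the 20 bases most often shared among them, chosen after the values were seen, were agaatcctccagaggcaaac. Where stretches were shared equally often, the one farthest from the start was taken. An exact copy of these 20 bases was present in 6 of the 13. All 13 held a copy with at most 2 mismatches, beginning at positions -194 to -183 from the start. On either strand of all 32544 promoters there were 6 exact copies (0.0184%) and 13 with at most 2 mismatches (0.0399%), of which 0 lay outside the group. The windows of 30 bases around it are shown for the 4 matched genes whose deletion libraries were all below their controls, and for Vmn2r65 and Vmn2r73, whose libraries overlapped, with capitals for bases that differ from the shared 20. Each is read on the gene's own strand.
Vmn2r66, chr7:85012188-85012217, minus strand: gcttaagaatccGcAagaggcaaacaagga
Vmn2r69, chr7:85415844-85415873, minus strand: gctcaagaatcctccagaggcaaacgtaga
Vmn2r74, chr7:85961644-85961673, minus strand: gcttaagaatcctccagaggcaaacaagaa
Vmn2r79, chr7:86996269-86996298, plus strand: gcttcagaatcctccagaggcaaacagtga
Vmn2r65, chr7:84964171-84964200, minus strand: gcttaagaatcctccagaggATaacatgca
Vmn2r73, chr7:85876108-85876137, minus strand: gcttaagaatcAtccagaggcaaacaagga
The stretch was thus present both in members whose libraries did not overlap between groups and in members whose libraries did. Of the 6 exact copies, those of Vmn2r68, Vmn2r71 and Vmn2r75, not shown, were in members whose libraries overlapped. None of these members passed the test, and no factor is named for the stretch. Vmn2r77 was not matched to a promoter. In GENCODE the windows of Vmn2r66, Vmn2r69, Vmn2r73 and Vmn2r79 lie inside the annotated gene, whose start is placed further upstream than in RefSeq.

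Some other genes within the group's span did differ between control and deletion animals. All 15 genes that limma called were on chromosome 7. If the deletion's coordinates are those of GRCm38, the build in the submitters' processing notes, the genes of the group lie 15.9 to 18.0 Mb from it. Within the group's span lie 18 odorant receptor genes, all in a block at chr7:86268487-86697507 between Vmn2r76 and Vmn2r77. Of these, Olfr297 fell by 4.18 on the log2 scale (limma adjusted p = 0.00205) and Olfr293 fell by 3.74 (adjusted p = 0.0272). Olfr297 was at 240, 248 and 243 in the controls and 18.7, 12.1 and 8.45 in the deletion libraries.

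The odorant receptors of this block went both ways. Without overlap between groups, 5 of the 18 were lower in the deletion libraries and 5 were higher, among them Olfr298, at 31.8, 32.1 and 41.9 in the controls and 122, 102 and 179 in the deletion libraries (adjusted p = 0.0679, and 0.00462 when the set was a term). Among the 15 V2Rs of the span, 5 were lower and 0 higher, and of the 17 Vmn2r-ps genes there 0 were lower and 0 higher. Of the 9 other genes of the span, 0 were lower and 0 higher. Elsewhere, 2 of 102 V2Rs (1.96%) were lower in every deletion library. Among genes of chromosome 7 that are not V2Rs the share was 163 of 3773 (4.32%) lower. These shares are not like for like, since a gene at 0 in a control library cannot count as lower. Control 1 had a read in 13 of the 15 V2Rs of the span. It had a read in 44 of the other 102 V2Rs and in 9 of all 82 Vmn2r-ps genes. Strain alleles across this stretch were not analysed here, and their part in these values was not tested.

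The family C receptors, Vmn2r1 to Vmn2r7 on chromosome 3, had a summed value of 25.9, 57.4 and 51.2 in controls 1 to 3 and 13.4, 18.8 and 97.8 in deletions 1 to 3. The groups overlapped, with means of 44.8 ± 16.7 and 43.3 ± 47.2 (SD, n = 3), and deletion 3 was the highest library. Below Vmn2r1 came Vmn2r3, at 5.17, 4.59 and 10.47 in the controls and 2.99, 3.31 and 18.1 in the deletion libraries, and Vmn2r2 at 3.70, 6.89 and 9.30 and at 2.24, 0 and 13.3. Both were highest in deletion 3.

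Vmn2r4 was at 2.96, 8.04 and 3.49 in the controls and 0, 0 and 13.3 in the deletion libraries. Vmn2r5 was at 1.48, 9.18 and 3.49 and at 0.747, 0 and 9.66. Vmn2r7 was at 0, 5.74 and 9.30 and at 0, 0 and 16.9, the widest range of the 7. Vmn2r6 was the lowest, at 0.739, 1.15 and 1.16 and at 0, 1.10 and 4.83. Vmn2r7 overlaps other genes on its own strand. In sum 245 of the 1908 V2R reads fell in family C, 88 of them in Vmn2r1.

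Per kilobase of annotated exon, the mean over 6 libraries ranged from 0.0307 to 2.46 normalized counts with a median of 0.350. Vmn2r29 led at 2.46, followed by Vmn2r1 at 2.21, Vmn2r27 at 1.70, Vmn2r19 at 1.45, Vmn2r81 at 1.35 and Vmn2r74 at 1.17. This order pools the library sets and was not the same in both. In set A Vmn2r1 led at 1.64, followed by Vmn2r29 at 1.35 and Vmn2r74 at 1.12, with Vmn2r81 at 0.367 and Vmn2r19 at 0.337. In set B Vmn2r29 led at 3.57, followed by Vmn2r1 at 2.79, Vmn2r27 at 2.62, Vmn2r19 at 2.57 and Vmn2r81 at 2.33, with Vmn2r74 at 1.23. Single genes varied widely between libraries, and Vmn2r19 ran from 0.739 to 10.47 normalized counts. Of the receptors with a textbook ligand, added after the values were seen, Vmn2r116, which detects the tear peptide ESP1, was at 0, 6.89 and 3.49 in the controls and 0, 0 and 8.45 in the deletion libraries. Vmn2r26, which responds to MHC class I peptides, was at 0.739, 1.15 and 6.98 and at 0.747, 1.10 and 2.41. Both lay within the range of the other members.

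By position the 116 members found in GENCODE vM21 formed 18 groups on 9 chromosomes, with 46 members on chromosome 7 and 31 on chromosome 17. Of the 116, 115 are annotated as protein coding, and Vmn2r125 as a pseudogene. Set A held almost nothing of some groups. The 10 members Vmn2r8 to Vmn2r17 on chromosome 5 summed to 2.22, 28.7 and 44.2 in the controls and 0, 0 and 61.6 in the deletion libraries, and the 7 members Vmn2r111 to Vmn2r117 on chromosome 17 to 0.739, 26.4 and 17.4 and to 0, 0 and 39.8. The largest group, 22 members from Vmn2r90 to Vmn2r110, summed to 6.65, 63.1 and 87.2 and to 3.73, 4.42 and 105. For each of these sums control and deletion overlapped and the sets did not.

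Some groups had a smaller ratio of set B to set A than the groups above. The pair Vmn2r88 and Vmn2r89 on chromosome 14 summed to 11.1, 11.5 and 9.30 in the controls and 1.49, 4.42 and 9.66 in the deletion libraries. Control 1 of set A there matched the set B libraries. The 9 members Vmn2r19 to Vmn2r27 on chromosome 6 summed to 17.7, 50.5 and 53.5 and to 17.9, 19.9 and 54.3, with ratios of deletion to control of 1.07 in set A and 1.04 in set B. The sum of these 9 members did not overlap between the sets, though single members such as Vmn2r22 did. Of all members, 22 overlap another gene, 15 of them on the opposite strand, as Vmn2r24 does with Vmn2r25 and Vmn2r70 with Vmn2r71. Whether strand was used in counting is not stated in the labels or the submitters' notes, so such reads cannot be assigned with certainty.

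The rest of the V2R pathway was read over all 6 libraries. Trpc2 itself was not analysed here, and Xntrpc, a gene whose span holds it, ranged from 22.9 to 47.7. Gnao1, the G protein subunit of V2R neurons, ranged from 2498 to 3411, Gnai2, that of V1R neurons, from 2390 to 3071, and B2m, the partner of H2-Mv proteins, from 2564 to 4192, all genes that other cells of the tissue also express. Of the 20 signalling genes and transcription factors listed, 18 were tested and limma called 0 higher and 0 lower. The sum of the listed genes was 1.08 times higher in set B. The highest were Gnb1 (44176 to 57199), a G protein beta subunit, the chloride channel gene Ano2 (14639 to 19184) and the transcription factor gene Ebf2 (15008 to 18619).

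More particular vomeronasal markers were low. H2-M10.3 ranged from 19.4 to 79.1, H2-M10.6 from 4.48 to 37.4 and H2-M10.5 from 0 to 25.3, and limma called 0 of the 2 H2-Mv genes tested. The 9 H2-Mv genes summed to 27.6 to 155 and were 2.69 times higher in set B. The calreticulin gene Calr4 ranged from 26.5 to 64.0, and Tfap2e, a transcription factor gene of basal vomeronasal neurons, was at 0 in at least 1 library and at most 7.24. The 7 formyl peptide receptors were a separate list and not among these markers, so their sum is not read as a vomeronasal level. They summed to 5.98 to 41.9, with Fpr2 at 4.48 to 16.9, Fpr1 at 1.49 to 9.30 and Fpr-rs7 at 0 to 5.81.

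The V1Rs gave a like picture. Their 145 genes summed to 65.0 to 372, 4.49 times higher in set B, and 1 of them, Vmn1r4, was tested and not called. Vmn1r4 ranged from 37.0 to 63.1 and so was well above any V2R, while the next, Vmn1r228 and Vmn1r181, reached 9.94 and 9.66. The Vmn2r-ps genes summed to 14.05 to 258, 12.2 times higher in set B, led by Vmn2r-ps82 at 6.65 to 14.5. Of other class C receptors, 10 of 15 were tested and none was called, the highest being the GABA-B subunits Gabbr1 (5623 to 7377) and Gabbr2 (2954 to 3521) and the calcium-sensing receptor Casr (147 to 339).

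Markers of the surrounding cells placed the tissue. Omp, the olfactory marker protein gene, ranged from 125370 to 181804, and the 9 olfactory neuron markers summed to 377394 to 510207, 1.17 times higher in set B. The sustentacular markers Cyp2g1, Cyp1a2 and Ermn summed to 140744 to 157776. Lcn3 and Lcn4, lipocalins of vomeronasal and nasal glands, moved against the V2Rs between the sets, with a set B to set A ratio of 0.292. Their sums were 57125, 6429 and 18650 in controls 1 to 3 and 27303, 52987 and 15047 in deletions 1 to 3. Within set A these sums rose in the same order as the V2R sums, from deletion 1 to deletion 2 to control 1. Within set B control 2 was the lowest library for both, but control 3 was above deletion 3 for the lipocalins and below it for the V2Rs. The respiratory markers Bpifa1, Foxj1 and Tekt1 summed to 210135 to 355184, with a ratio of 0.699. limma called 0 genes of these lists, and the part of tissue makeup in V2R levels was not tested.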

How the data were processed

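Total RNA libraries from 6 samples, described as separate animals, were aligned with STAR 2.6.0 to GRCm38.p6 and normalized with DESeq2, per the submitters' processing notes; the counting program is not given in the sources used here. The deposited signal values are gene read counts divided by a factor per library. Whole reads were recovered from 100% of values (within 0.001 reads). The authors' deposited table also holds log2 fold changes, p-values and a score (the test statistic), of which only the p-values are quoted. Computed here were limma 3.58.1 (trend, R 4.3.3) on log2(value + 1), for genes that reached 10 in 3 or more libraries, and, as alternatives, edgeR 4.0.16 and DESeq2 1.42.0 on the recovered reads. The fits were checked on simulated counts. Changes were placed there only in genes with a mean above that of any V2R, so the check does not cover the members. Library sets came from the number of genes with a read. Positions are from GENCODE vM21, and members at most 1 Mb apart were grouped. The members and gene lists were chosen with earlier results of these data known. Named genes were those reaching 10 in 3 libraries, family C, and in other lists the 3 highest and any called; others are marked. Vmn2r122 was not found in the annotation, and 5 annotated Vmn2r genes were not analysed here.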

Additional observations from a re-analysis of the deposited data

How the results depend on the processing

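Under all 16 alternative fits no Vmn2r gene passed the threshold, and the adjusted p of the 4 tested members lay between 0.634 and 1.00. The count of all genes called, 15, became 45 with DESeq2, 36 when the library set was a term and 46 with a replicate block, and 6 to 24 when single libraries were left out. With group means removed, same-numbered samples correlated at 0.65, -0.34 and 0.66. Both samples 1 were in set A, both samples 3 in set B, and samples 2 in different sets. The signs of the correlations follow the sets, so they cannot show whether the numbers pair the animals. Among 64 fits of single members, 59 kept their direction. Vmn2r1 (-0.19) turned to 0.065 when the library set was a term (0.065 without the filter too), to 0.051 without control 2 and to 0.19 without deletion 1, and Vmn2r29 (-0.60) to 0.29 without deletion 1. With single libraries left out they ranged from -0.52 to 0.19 and from -1.17 to 0.29. The median fold change, -0.54, ranged from -0.54 to -0.17 with single libraries left out, was -0.29 for the same 4 genes when the set was a term, and was 0.070 without the filter and with the set as a term, a setting chosen after seeing the data that covers all 117 members. The log2 ratio of the summed value, -0.47, ranged from -1.94 (without deletion 3) to -0.041 (without deletion 1), and was -0.73 within set A and 0.36 within set B. The number of members at 10 in 3 libraries, 4, was 17 at a value of 5, 0 at 20, 24 for 1 library, 0 for all 6, 3 for the 3 control libraries and 0 for the 3 deletion libraries. The cause of these changes was not tested. The median member had 12 reads over the 6 libraries, and the part of depth in the lack of calls was not tested.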
